A study of Homo sapiens with 4 samples.

Results

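The retained introns described here lie in genes other than those for ribosomal proteins and for translation initiation or elongation factors. They are the events of the deposited retained-intron table whose gene symbol does not start with RPL, RPS, EEF or EIF. That choice used the gene name alone and no count. It left 221 of 264 retained-intron events, in 193 genes on 21 chromosomes, out of 471 splicing events of 5 classes. Of those genes, 166 had 1 listed intron, 26 had 2, and MYL6, which encodes a myosin light chain, had 3.

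RKO is an established human colorectal cancer cell line. The cells were either wild type (WT) or overexpressed ZCCHC7 (OE), and each genotype gave 1 input library and 1 immunoprecipitate (IP) library, 4 libraries in all and no replicate. The sources conflicted on the antibody, since the characteristics of the IP samples gave ZCCHC7 whereas the protocol described beads carrying an SRSF1 antibody and a later incubation with an m6A antibody. ZCCHC7 had no event in these tables, so its overexpression was not checked from them, and how it was overexpressed and in how many clones was not given in the sources used here.

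An intron is retained when the transcript keeps it while its neighbours are spliced out. Introns that resist splicing are often short, rich in G and C, and bounded by weak splice sites, and many transcripts that keep one are held in the nucleus or degraded. ZCCHC7 is a zinc-knuckle protein of the complex that adds short tails to nuclear RNAs and hands them to the RNA exosome, which degrades faulty and unspliced transcripts. The measurement here was a pair of counts for each intron. An inclusion count is a read in or across the intron, and a skipping count is a read over the spliced junction. The inclusion share is the percentage of both that was inclusion. Each genotype carried 2 values of each count, called first and second after their order in the table. Which library each value came from was not stated, nor whether the order was the same in both genotypes. The 2 values were therefore kept apart, and OE and WT were assigned from the name of the comparison.

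The sequences below are shown because a microRNA hairpin or promoter window of RefSeq (GRCh38.p14), the only sequences searched, held these introns whole. That was so for 3 of the 221. They illustrate a short type rich in G and C. The G and C content of the other introns was not measured, so these examples do not describe the set. The listed coordinates of the ARF1 and PLEKHJ1 introns met those of RefSeq microRNA hairpins, as in mirtrons, where a spliced intron is itself the microRNA precursor. ARF1 encodes a small GTPase of vesicle budding. Its 79-base intron 2 (chr1:228097263-228097341, plus strand) had the same start and end as the hairpin of MIR3620. PLEKHJ1 encodes a pleckstrin-homology protein. Its 94-base intron 2 (chr19:2235829-2235922, minus strand) lies in the hairpin of MIR6789 (chr19:2235829-2235926), and the 4 bases before its GU are exon. DPP7 encodes a dipeptidyl peptidase, and its first intron has 70 bases (chr9:137114577-137114646, minus strand). The first and last 30 bases of each are printed. Capitals mark the 2 bases at either end of the intron, GU or GT at the start and AG at the end.
ARF1 start, chr1:228097263-228097292: GUgaggugggggccagcagggagugggcug
ARF1 end, chr1:228097312-228097341: acaaggccucacccugcaucccgcacccAG
PLEKHJ1 start, chr19:2235897-2235926: cgagGUaggggcgucccgggcgcgcgggcg
PLEKHJ1 end, chr19:2235829-2235858: gccccgucccggcgcccgugucuccuccAG
DPP7 start, chr9:137114617-137114646: GTgagtggcggcgccccccggcccattccc
DPP7 end, chr9:137114577-137114606: cccgcctctgaggttcgcgtccccccacAG

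G and C made up 70.9% of the ARF1, 80.9% of the PLEKHJ1 and 78.6% of the DPP7 intron. The mature microRNAs of both hairpins follow, with the seed, bases 2 to 8, in capitals. No 2 of the 4 seeds were the same.
hsa-miR-3620-5p: gUGGGCUGggcugggcugggcc
hsa-miR-3620-3p: uCACCCUGcaucccgcacccag
hsa-miR-6789-5p: gUAGGGGCgucccgggcgcgcggg
hsa-miR-6789-3p: cGGCGCCCgugucuccuccag

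The ARF1 intron had 2 skipping counts in the first WT value and 1 inclusion count in the second OE value. PLEKHJ1 had 1 skipping count in the first WT value and 4 inclusion counts in the second OE value, and the first DPP7 intron had 1 and 10. In all 3 the other values were 0. All 3 thus had only junction reads in WT and only intron reads in OE, with so few counts that the first and second values could not be compared within a genotype.

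The donor sites of 9 listed introns lay in RefSeq promoter windows, and all 9 introns began with GT. They are printed as 10 exon bases followed by 10 intron bases, with the GT in capitals, to show how the exon end before it varied. ADCY3, an adenylate cyclase, and UNC50, a Golgi protein, have the listed intron in the 5′ UTR. SNHG5 is a noncoding host gene of small nucleolar RNAs, and MYL6 is the gene with 3 listed introns.
ADCY3 donor, chr2:24919673-24919692, minus strand: tcccgcacagGTaaacgcag
UNC50 donor, chr2:98608717-98608736, plus strand: aggactccagGTgaggcctg
SNHG5 donor, chr6:85678684-85678703, minus strand: cgggtggtagGTgagtgggt
MYL6 donor, chr12:56158395-56158414, plus strand: agtcaagatgGTggggccca

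ADCY3, UNC50 and SNHG5 end the exon in AG before the GT, and MYL6 ends it in TG. ADCY3 had 1 skipping count in the first WT value and 7 inclusion counts in the second OE value. UNC50 had 2 inclusion and 6 skipping counts in the first WT value, 6 inclusion counts in the second WT value and 4 in the second OE value. SNHG5 had counts in second values only, 7 inclusion and 1 skipping in WT against 2 and 1 in OE. SNHG5 was therefore mostly intron reads in both genotypes, and UNC50 had only intron reads in both second values.

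The retained introns were short. Their lengths ran from 67 bases in COMTD1 to 4692 bases in SEPT7, with a median of 241 bases (95% interval of the median 191 to 282) and quartiles of 95 and 534. Of the 221, 60 (27.1%) were shorter than 100 bases and 27 (12.2%) had 1000 bases or more. Among 247772 distinct introns of annotated protein-coding transcripts the median was 1786 bases, 4.32% were shorter than 100 bases and 64% were longer than 1000. The 43 retained introns of translation machinery genes had a median of 291 bases, and 3 of them (6.98%) were under 100 bases. Every listed intron had an annotated transcript that keeps it, whereas the annotated introns were not limited to such introns or to expressed genes. These are descriptions with no test, since introns of one set of libraries are not replicates.

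**Figure D1:**
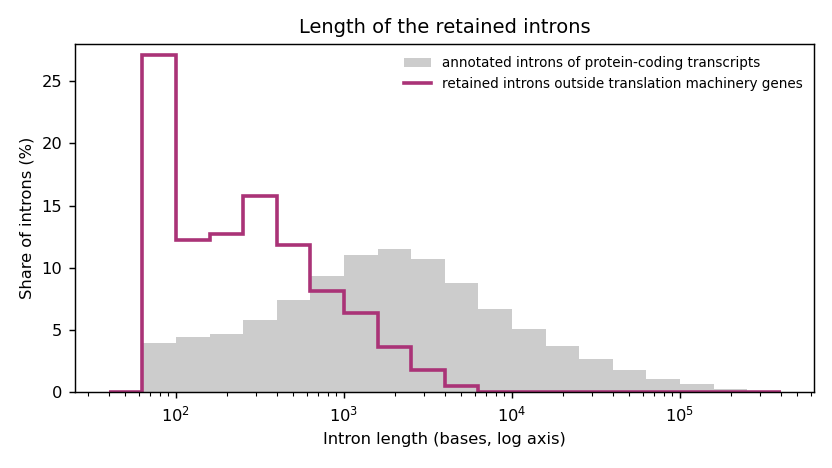
Share of introns (%) in equal steps of length on a log axis, for the 221 retained introns (line) and for annotated introns of protein-coding transcripts (grey area). The tallest step of the retained introns, 27.1%, lies just under 100 bases, where the annotated introns have 3.96%.

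COMTD1, a methyltransferase-domain protein, had the shortest intron, and the 70-base introns of HGS, an endosomal sorting protein, GUK1, a guanylate kinase, and DPP7 came next. The longest after SEPT7, a septin of the cytoskeleton, were those of DDX17, an RNA helicase, at 3940 bases and RBBP7, a histone-binding protein, at 3305. COMTD1 had 3 inclusion and 4 skipping counts in the first WT value and 2 inclusion counts in the second OE value. HGS had 3 skipping counts in the first WT value and 4 inclusion counts in the first OE value, and thus had all its OE intron reads in the first value. SEPT7 had 2 inclusion counts in the second WT value, 3 skipping counts in the first OE value and 2 inclusion counts in the second OE value. DDX17 had 2 inclusion counts in the second WT value, 2 skipping counts in the first OE value and 10 inclusion counts in the second OE value. In both of these long introns every intron read came from a second value, in either genotype.

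Chromosome 19 held 34 of the retained introns (15.4%) and 6.2% of annotated introns of protein-coding transcripts. Chromosome 17 held 26 (11.8% against 6.05%) and chromosome 16 held 19 (8.6% against 4.47%). Chromosome 1, which has the most annotated introns, 9.82%, held 21 (9.5%). The retained introns were thus more frequent than annotated introns on chromosomes 16, 17 and 19, as a description with no test. Here too the annotated introns were not limited to expressed genes or to introns with an annotated retained form.

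Most of these introns interrupt coding sequence. In the annotated transcript that splices the intron out, 206 (93.2%, 95% Clopper-Pearson interval 89.1 to 96.2) lay within the coding sequence, 9 in the 5′ UTR, 2 in the 3′ UTR and 4 in noncoding transcripts. The intron was internal in 189 (85.5%), the first in 17 and the last in 15, and its transcript had a median of 10 introns. With the transcript of most exons taken instead, 192 (86.9%) lay in coding sequence. Of the 43 translation machinery introns, 41 (95.3%) lay in coding sequence and 33 (76.7%) were internal.

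The annotated transcript that keeps the intron belonged to the biotype retained_intron in 168 cases (76%), which marks transcripts with no assigned protein. It was protein_coding in 32, processed_transcript in 12 and nonsense_mediated_decay, the class of transcripts expected to be degraded for an early stop codon, in 7. HNRNPLL, MYL6 and PTBP1 are among the genes with a protein-coding retained form. The length of the intron was a multiple of 3 bases in 73 (33%). The annotation carried coding sequence straight through 14 introns, 9 of them a multiple of 3 bases long, and placed a stop codon inside 8, including that of TBCA. Such reading-through introns included the 78-base IRAK1 intron, in a kinase of innate immune signalling, with 4 skipping counts in the first WT value and 9 inclusion counts in the second OE value, and the 279-base MYL6 intron, with 2 and 10.

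Another annotated gene covered part of the intron on the same strand in 20 cases and on the opposite strand in 22. Intron reads of the opposite-strand cases cannot be assigned to one gene without strand. Those of the same-strand cases cannot be assigned by strand at all. Same-strand cases include the 729-base DPH1 intron, overlapped by OVCA2, and the 279- and 875-base MYL6 introns, overlapped by MYL6B. A small RNA gene lay wholly inside 5 of the introns. They were the ARF1 intron with its microRNA, both overlapping PTMA introns with an annotated small nuclear RNA, the LRRC75A-AS1 intron with SNORD49A, and the 534-base RACK1 intron with SNORD96A. RACK1, a ribosome-bound scaffold protein, had 4 inclusion and 6 skipping counts in the first WT value and 1 inclusion count in the second, against 2 skipping counts in each OE value. LRRC75A-AS1 had 1 inclusion and 2 skipping counts in the first WT value and 2 inclusion counts in the second OE value.

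Neither the 57 WT nor the 30 OE peaks that the authors called from IP over input overlapped any of the 221 introns or their flanking exons by 1 base or more. The peak lists therefore add no second readout for these introns.

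Counts were sparse. The 221 introns had 2171 counts in all, 1126 in WT and 1045 in OE. The median was 7 counts per intron (2 to 143), 146 introns had fewer than 10 counts over all 4 values, and 12 had at least 10 in each genotype with both values added. Every listed intron had at least 1 inclusion count, 1 skipping count and 1 count in each genotype. Both forms and both genotypes are thus present by the make-up of the list, which is no finding.

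The first and second values differed within each genotype. In WT the inclusion share of the summed counts was 18.3% (151 of 824, exact interval 15.7 to 21.1) in the first value and 66.6% (201 of 302, 60.9 to 71.9) in the second. In OE it was 31.6% (73 of 231, 25.7 to 38) in the first value and 90.8% (739 of 814, 88.6 to 92.7) in the second. First values were mostly junction reads and second values mostly intron reads, in both genotypes. The intervals are Clopper-Pearson and cover counting error only, and reads without molecular identifiers are not independent molecules.

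Within the first values the OE share was 13.3 points above the WT share (Newcombe interval 6.97 to 20), and within the second values 24.2 points above it (18.7 to 30). With the values added the shares were 31.3% in WT and 77.7% in OE, a gap of 46.4 points. The added gap is larger than either gap within a value. The weight of the values differed between the genotypes: 73.2% of the WT counts lay in the first value and 77.9% of the OE counts in the second. The added shares join both values of a genotype. No genotype had a replicate library, so no spread between replicates was measured.

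**Figure D2:**
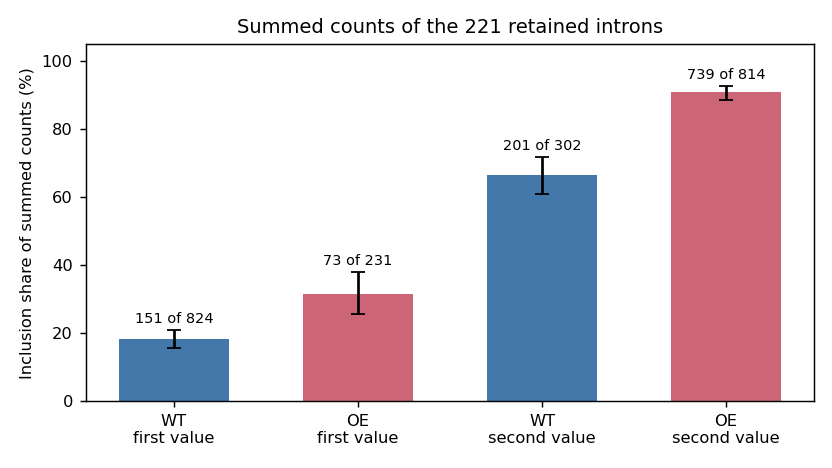
Inclusion share (%) of the summed counts of the 221 introns by genotype and value, with exact 95% intervals for counting error and the inclusion counts over all counts above each bar. Both second values (66.6% and 90.8%) stand above both first values (18.3% and 31.6%).

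Inclusion counts were taken over the whole intron, since the deposited inclusion length equalled the intron plus 149 bases in every row and the skipping length was 149. Divided by these lengths, the shares were 7.02% and 37.3% in the first and second WT values and 15.4% and 75.8% in the OE values. The order of the 4 values was the same with and without this correction. The retained introns of translation machinery genes had uncorrected shares of 11.9% and 32.9% in WT and 45.6% and 64.5% in OE. There the first OE value stood above the second WT value, the reverse of the order outside these genes. That difference was not tested.

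Longer introns had more intron reads, with no such trend in junction reads. Introns under 100 bases had a mean of 3.38 inclusion and 4.45 skipping counts each, and those of 1000 bases or more had 9.41 and 3.33. Across the 221 introns Spearman's rho of length was 0.41 with the inclusion count and 0.01 with the skipping count. The introns share the same 4 libraries, and the table can only hold introns with both kinds of count. Per 1000 countable positions, inclusion counts were 14.6 under 100 bases and 4.59 at 1000 bases or more.

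The split between values held at every length. Under 100 bases the inclusion share was 10.4% and 54.3% in the first and second WT values and 29.6% and 85.6% in the OE values. At 1000 bases or more it was 19.5% and 84.8% in WT and 42.1% and 98.3% in OE. In each length class the second value of a genotype stood above its first, and the second OE value was the highest of the 4. In the class from 300 bases to under 1000 the first values were close, 24% in WT (19.5 to 28.9) and 27.9% in OE (18.8 to 38.6), with overlapping intervals.

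**Figure D3:**
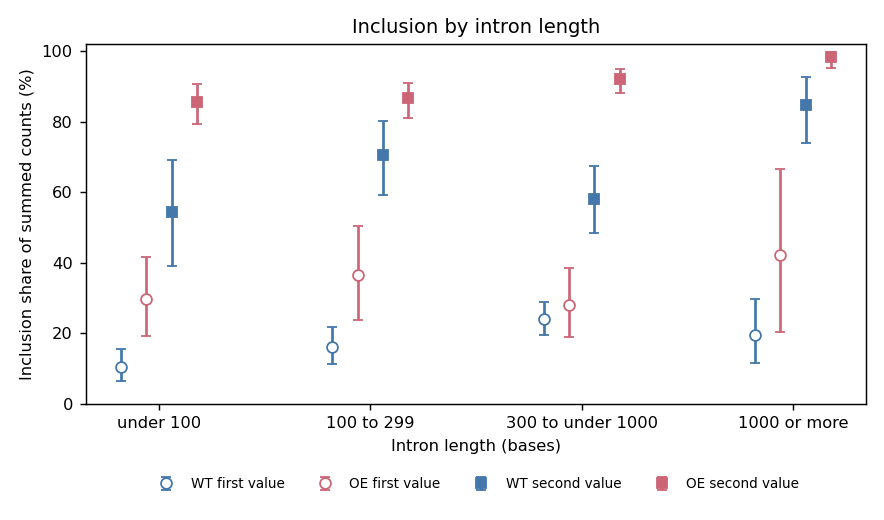
Inclusion share (%) of summed counts by class of intron length, for the first (circles) and second (squares) values of WT (blue) and OE (red), with exact 95% intervals. In every class the second values lie above the first of the same genotype, up to 98.3% for OE at 1000 bases or more.

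Single introns were mostly all one form within a value. Of 195 introns with counts in the second OE value, 169 had only intron reads, 7 only junction reads and 19 both. Of 177 with counts in the first WT value, 118 had only junction reads, 17 only intron reads and 42 both. The second WT value had counts at 100 introns, 59 with intron reads only. The first OE value had counts at 78, 30 with intron reads only and 42 with junction reads only. With a median of 2 or 3 counts per intron and value, a share of 0 or 100% says little about a single intron.

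The commonest pattern was junction reads in the first WT value, intron reads in the second OE value and nothing else, at 62 of the 221 introns (28.1%). LMNA, the gene of the nuclear lamins A and C, is an example, with 4 skipping counts in the first WT value and 18 inclusion counts in the second OE value over its 744-base intron 10. PSMD2 of the proteasome had 2 and 8 in its 176-base intron 9. At 84 introns all counts lay in the first WT and the second OE value, and at 130 each genotype had counts in 1 value only. Only 17 introns had counts in all 4 values. At 131 introns no difference between the genotypes could show within a value, because 1 genotype or 1 form had no count there.

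Read intron by intron, the direction depended on which values were set side by side. First against first, 63 introns had counts in both genotypes, and the OE share was higher in 25, lower in 17 and equal in 21. Second against second, it was higher in 36 of 87, lower in 14 and equal in 37. The median difference was 0 points in both. With the values added, it was higher in 181 of 221, lower in 39 and equal in 1, with a median of 66.7 points. Of the 43 translation machinery introns, 33 were higher and 10 lower with the values added.

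Within WT, the second value was higher than the first in 41 of 56 introns, lower in 9 and equal in 6. Within OE it was higher in 33 of 52, lower in 2 and equal in 17. Across genotypes and values, the second OE value was higher than the first WT value in 140 of 155 introns and lower in 8, whereas the first OE value was higher than the second WT value in 6 of 41 and lower in 23. The side with the second value had the higher inclusion share in each of these 4 counts, whichever genotype it was. Several of the counts share a value and so share reads.

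**Figure D4:**
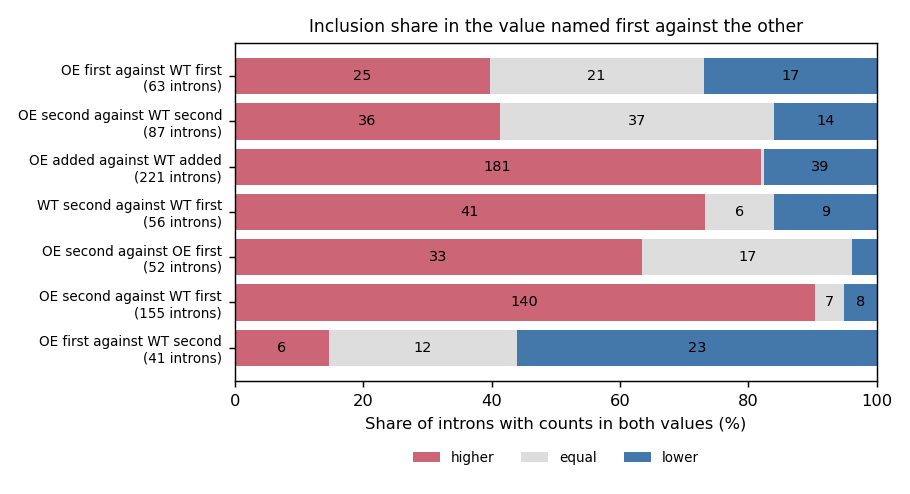
For 7 pairs of values, the share (%) of introns in which the value named first had a higher, equal or lower inclusion share, with the number of introns in the bars. Added values give 181 of 221 higher in OE, whereas first against first gives 25 of 63 and first OE against second WT gives 6 of 41.

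Tests ran on the counts of all 5 event classes and compare these libraries, not the conditions. Within values, Fisher's exact test (two-sided, at least 10 counts per genotype at that value, Benjamini-Hochberg adjustment) had 20 tests, of which 0 (0%) passed an adjusted p of 0.05 and 4 had an unadjusted p below it. Of the 221 introns 5 were tested, 0 passed, and 0 had an unadjusted p under 0.05. These 5 had little room to differ. ACTG1 and DRAP1 had no inclusion count in either genotype at the tested value, and the 470-base PTMA intron had 2 in WT and 0 in OE. The counts of TBCA and DVL3 allowed no unadjusted p below 0.474 and 0.357 by Fisher's exact test. The result therefore does not show that the genotypes were alike. With values added, 9 of 32 events (28.1%) passed, and 6 of the 12 tested introns outside translation machinery genes did. In an exact test stratified by value, 1 of 32 (3.12%) passed, which was in RPS15, and 0 of these 12, with 0 at an unadjusted p under 0.05. Of the 12, only PTMA (both introns) and the 401-base REX1BD intron had counts that could have reached an unadjusted p under 0.05 in the stratified test.

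The 5 introns tested within a value are given first. ACTG1 encodes gamma-actin. Its 79-base intron 4 had 20 skipping counts in the first WT value and 11 in the first OE value with no inclusion count, 2 skipping counts in the second WT value, and 1 inclusion and 2 skipping counts in the second OE value. Nearly every read of this intron was spliced, in both genotypes. DRAP1 encodes a repressor of RNA polymerase II transcription. Its 95-base intron 2 had 23 and 13 skipping counts in the first WT and OE values, 2 inclusion counts in the second WT value and 2 skipping counts in the second OE value. The 2 intron reads of DRAP1 lay in WT.

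DVL3 encodes a Dishevelled protein of Wnt signalling. Its 83-base intron 9 had counts in second values only, 10 skipping in WT and 1 inclusion and 17 skipping in OE. Nearly all of its reads were spliced, although second values were mostly intron reads elsewhere. TBCA encodes a tubulin-folding cofactor. Its 1767-base last intron had 10 inclusion counts in the second WT value, 2 inclusion counts in the first OE value and 8 inclusion and 2 skipping counts in the second OE value. Most TBCA counts were thus intron counts in both genotypes, and its annotated retained form is protein-coding with the stop codon in the intron. Its second values, 100% in WT and 80% in OE, gave an unadjusted p of 0.474 and an adjusted p of 1 by Fisher's exact test. Corrected for the long inclusion form, the second OE value was 23.7% against 100% in WT, a difference of -76.3 points that rests on the 2 skipping counts.

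PTMA encodes prothymosin alpha, an acidic nuclear protein that binds histones, and had the most counts. Its 470-base intron 2 had 2 inclusion and 101 skipping counts in the first WT value and 4 skipping counts in the second. In OE it had 30 skipping counts in the first value and 6 inclusion counts in the second. The first values were nearly all spliced, 1.94% in WT against 0% in OE, whereas the added values turned the direction, 1.87% in WT against 16.7% in OE, with an adjusted p of 0.0154 by Fisher's exact test and of 0.538 by the stratified exact test. The 467-base PTMA intron shares its start and all its inclusion counts, so it is not a separate observation. It had 19 and 6 skipping counts in the first WT and OE values and 1 in the second WT value.

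Of the introns that passed only with values added, NCL had the smallest p. NCL encodes nucleolin, the abundant nucleolar protein of ribosome assembly, and is a host of small nucleolar RNAs. Its 611-base intron 7 had 30 skipping counts in the first WT value and no other WT count, against 1 inclusion and 3 skipping counts in the first OE value and 6 inclusion and 1 skipping count in the second. WT had no NCL intron read, and OE had them in both values. The added shares were 0% in WT and 63.6% in OE (Fisher's exact test, adjusted p 0.00047), and the stratified exact test gave an adjusted p of 0.538, with 0.118 unadjusted, the smallest its counts allow.

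DBNL encodes a drebrin-like actin-binding protein. Its 269-base intron 6 had 10 skipping counts in the first WT value, 3 skipping counts in the first OE value and 9 inclusion counts in the second OE value. SRA1 is a gene with both a noncoding and a coding transcript that coactivates steroid receptors. Its 812-base intron 3 had 6 skipping counts in the first WT value, 4 inclusion counts in the second WT value and 14 inclusion counts in the second OE value. SSRP1 encodes a subunit of the FACT histone chaperone, and its 1666-base intron 12 had 6, 5 and 10 in the same places. In these 3 introns every skipping count lay in a first value and every inclusion count in a second value, in either genotype, and the stratified test had no difference left to measure (p of 1).

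The overlapping REX1BD introns of 335 and 401 bases share a start and all inclusion counts, 10 in the first WT value, 2 in the first OE value and 12 in the second OE value. Skipping counts were 5 and 2, all in the first WT value. REX1BD had intron reads in the first WT value, where most introns had junction reads. With values added the adjusted p were 0.104 and 0.382 by Fisher's exact test.

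**Figure D5:**
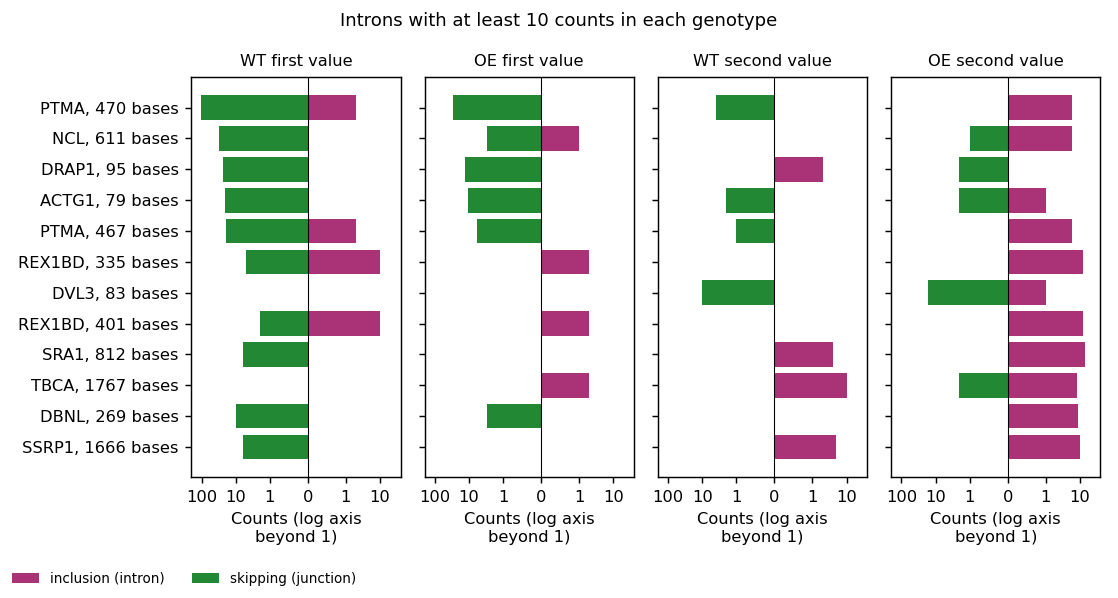
Inclusion counts (purple, to the right) and skipping counts (green, to the left) of the 12 introns with at least 10 counts in each genotype, in the first and second values of WT and OE, on an axis that is logarithmic beyond 1. PTMA, NCL, DBNL, SRA1 and SSRP1 have mainly skipping counts in the first values and inclusion counts in the second OE value, whereas REX1BD has mainly inclusion counts in both.

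Among the other introns with many counts, RBM8A encodes a core protein of the exon junction complex. Its 131-base intron 2 had 22 skipping counts in the first WT value and 1 in the first OE value, with 4 and 2 inclusion counts in the second values. STMN1 encodes stathmin, which destabilises microtubules. Its 1958-base intron 3 had 15 and 4 skipping counts in the first WT and OE values and 6 and 2 inclusion counts in the second. In both genes the genotypes had the same split by value, and the authors' deposited table gave a difference of 0.

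ACTB, beta-actin, had 4 skipping counts in the first WT value and 4 inclusion counts in the second, against 7 skipping counts in the first OE value and 4 inclusion and 7 skipping counts in the second. The first, 373-base intron of ACTG1 lies in the 5′ UTR and had 4 inclusion and 3 skipping counts in the first WT value, 6 and 13 in the second and 2 inclusion counts in the second OE value. After the REX1BD introns, ARGLU1, CYTH2 and TUBA1B had the most inclusion counts. ARGLU1 encodes an arginine- and glutamate-rich splicing regulator known for a regulated intron. Its 2300-base intron 2 had 4 inclusion and 1 skipping count in the first WT value and 20 inclusion counts in the second OE value. CYTH2, an exchange factor for ARF proteins, had 2 inclusion and 2 skipping counts in the first WT value and 2 and 18 inclusion counts in the OE values over its 3119-base intron 8. TUBA1B, alpha-tubulin, had 2 and 2 in the first WT value, 2 inclusion counts in the second, and 17 inclusion and 1 skipping count in the second OE value. These long introns were mainly read as intron in OE, and WT had 4 to 6 counts in each.

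Among genes with several listed introns, 21 of 27 had a higher added OE share in every intron and 2 a lower one in every intron. In the other 4 the introns went in opposite directions. These 4 were DUS1L, HMG20B, RACK1 and SSRP1, named after their values were seen. Of all 221 introns, 181 were higher and 39 lower in OE with values added, so most genes would lean that way. The 21 include PTMA and REX1BD, whose introns overlap and share all inclusion counts. Added shares also do not keep the first and second values apart. The 425-base SSRP1 intron had 4 inclusion counts in the first WT value and 3 skipping counts in the first OE value, opposite to its 1666-base intron. MYL6 had all 3 introns higher in OE with values added. Besides the first described above, its 875-base intron had 2 skipping counts in the first WT value and 5 inclusion counts in each second value. Its 244-base intron had 6 skipping counts in the first WT value and 2 and 1 inclusion counts in the second WT and OE values. Both had identical shares, 100%, in the second values of WT and OE.

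Gene lists of 12 functions were read against all 221 introns. For these the authors' deposited table gave an inclusion difference above 0 (higher in OE) in 175, below 0 in 41 and 0 in 5, with a median of 0.754. That difference does not keep the first and second values apart. At 84 introns all counts lay in the first WT and the second OE value, so genotype and value cannot be told apart there. The same limit holds for the directions given below for each list. No intron of any list passed within values, out of 4 tested. Spliceosome and hnRNP genes had 10 introns in 8 of 57 genes. The difference in the authors' deposited table was above 0 in 6, below it in 1 and 0 in 3, with a median of 0.5. The summed inclusion shares were 11.8% and 80% in the first and second WT values and 18.2% and 100% in the OE values, and none of the 10 had enough counts to be tested. CLK3, a kinase of splicing factors, had 4 and 3 skipping counts in the first WT and OE values and 2 inclusion counts in the second OE value. HNRNPLL had 4 inclusion and 4 skipping counts in the first WT value and 6 inclusion counts in the second OE value.

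Actin, myosin and cytoskeleton genes had 12 introns in 8 of 38 genes, with 9 above 0, 2 below and 1 at 0 in the authors' deposited table. Their shares were 7.79% and 72.2% in WT and 7.41% and 87.1% in OE, so the first values of the genotypes were level. Chromatin and histone chaperone genes had 8 introns in 6 of 35 genes, 7 above 0 and 1 below. There the share was 7.09% (3.45 to 12.7) in the first WT value and 2.5% (0.0633 to 13.2) in the first OE value, and 72.7% and 93.8% in the second values. The first values there came mostly from the PTMA introns. Transcription genes had 6 introns in 4 of 22 genes, with 5 above 0 and 1 below, the latter in DRAP1. Each of the 3 lists had fewer intron reads in first than in second values, in both genotypes.

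The list of small nucleolar RNA hosts, which leaves out LRRC75A-AS1 and RACK1 described above, had 4 introns in 3 of its 18 genes, NCL, GAS5 and SNHG5, with 3 above 0 and 1 below in the authors' deposited table. GAS5 is a noncoding gene that accumulates when translation is blocked. Its 193-base intron had 3 skipping counts in the second WT value against 4 inclusion counts in the second OE value, a difference within the same value, and its 282-base intron had 1 skipping count against 1 inclusion and 3 skipping counts there. The nucleolus list had 2 introns, in NCL and NOP16, both above 0. NOP16, a nucleolar protein, had 1 inclusion and 2 skipping counts in the first WT value and 4 inclusion counts in each second value. Of the RNA exosome and its cofactors, to which ZCCHC7 belongs, 1 of 21 genes had a listed intron. It was EXOSC2, a cap subunit, with 1 skipping count in the first WT value and 2 and 1 inclusion counts in the OE values, which is too few for a test.

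Proteasome and ubiquitin genes had 4 introns, all above 0 in the authors' deposited table. PSMD4, a ubiquitin receptor of the proteasome, had 9 skipping counts in each first value and 1 inclusion count in the second OE value, so its first values were equal. Protein folding genes had 2. PPIA, cyclophilin A, had 3 skipping counts in the second WT value against 10 inclusion counts in the second OE value, and HSPA9, a mitochondrial chaperone, had 2 skipping counts in the first WT value against 2 inclusion counts in the second OE value. PPIA is one of the introns whose genotypes did not share a form within the same value, with too few WT counts to be tested at the minimum of 10.

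Mitochondrial energy genes had 3 introns, 2 above 0 and 1 below. COX4I1, a subunit of cytochrome c oxidase, had 1 inclusion and 1 skipping count in the first WT value, 2 and 4 in the second and 6 inclusion counts in the second OE value. SLC25A3, the mitochondrial phosphate carrier, had 6 inclusion counts in the second WT value and 2 inclusion and 1 skipping count in the second OE value. The stress list held ATF4 and BAX, both above 0. ATF4, the transcription factor of the integrated stress response, had 9 inclusion counts in the first and 1 skipping count in the second WT value and 2 inclusion counts in the first OE value, for an intron in its 5′ UTR. ATF4 was read as intron in both first values. BAX, which opens the mitochondrial membrane in cell death, had 2 skipping counts in the first WT value and 1 inclusion count in the second OE value. The list of glycolysis and amino acid synthesis had 1 intron above 0, in PHGDH, and 1 below, in SHMT2, a mitochondrial enzyme of serine and glycine metabolism with 3 inclusion counts in the second WT value and 1 skipping count in the second OE value.

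The authors' deposited table gave 213 of the 221 introns a p of 1 and 3 a p under 0.05, with an FDR under 0.05 in 0 and a smallest FDR of 0.134. PHGDH, the first enzyme of serine synthesis, had 2 skipping counts in the first WT value and 1 inclusion count in the second, against 2 and 3 inclusion counts in OE. The authors' deposited table gave its 909-base intron a p of 0.000507. HMGN1, a nucleosome-binding protein, had 2 skipping counts in the first WT value and 11 inclusion counts in the second, against 1 and 3 inclusion counts in OE (p of 0.00382 in the authors' deposited table). INTS11, the endonuclease of the Integrator complex, had 4 skipping counts in the first WT value and 1 inclusion count in the second, against 2 and 1 inclusion counts in OE (p of 0.00467 there, for the 86-base intron). All 3 shared a pattern, WT junction reads in the first value and intron reads everywhere else, with 4 or fewer WT skipping counts. Their difference in the authors' deposited table was 0.5 each, and none of the 3 had 10 counts in each genotype.

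By place, the 9 introns of 5′ UTRs had an inclusion share of 65.5% (19 of 29, 45.7 to 82.1) in the first WT value and 51.2% (21 of 41, 35.1 to 67.1) in the second, with overlapping intervals. ATF4 gave 9 of those 19 counts. The OE shares were 66.7% (2 of 3) and 82.6% (19 of 23), and introns in coding sequence had 16.5% and 68.9% in WT. The 2 introns of 3′ UTRs, in DPH1 and USP20, had no skipping count in WT. DPH1, an enzyme of diphthamide synthesis, had 3 inclusion counts in the second WT value, 3 skipping counts in the first OE value and 5 inclusion counts in the second. USP20, a deubiquitinase, had 2 inclusion counts in the second WT value and 4 skipping counts in the first OE value. In both, the junction reads lay in the first OE value and the intron reads in second values.

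By retained form, the 168 introns of retained_intron transcripts had inclusion shares of 14.6% in WT and 31.1% in OE in the first values, 65.4% and 91.6% in the second, and 26.9% and 76.6% with values added. Among the introns of nonsense_mediated_decay transcripts, MAMDC4 had 6 inclusion and 2 skipping counts in the first WT value and 9 inclusion counts in the second OE value. KDM3A, a histone demethylase, had 8 inclusion and 2 skipping counts in the first WT value and 1 inclusion count in the second OE value. Both had intron reads in the first WT value, where most introns had junction reads. They were the only 2 of the 7 introns of this class with inclusion counts there, and 6 had skipping counts there. The class shares were 56% (14 of 25) and 20% (1 of 5) in the first and second WT values. In OE they were 0% (0 of 2) and 59.4% (19 of 32).

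Introns with intron reads in 1 genotype only numbered 112 in OE and 17 in WT, and 92 had them in both. Intron reads were thus present at 204 of the 221 in OE and 109 in WT, and at 35 and 21 of the 43 translation machinery introns. PIP5KL1, a phosphoinositide kinase-like protein, had 1 skipping count in WT, in the first value, against 1 and 17 inclusion counts in OE over an 88-base intron. Of the 17 with intron reads in WT only, DRAP1 had the most counts. Junction reads were in WT only at 152 introns, in OE only at 27 and in both at 42. They were present at 194 of the 221 in WT and 69 in OE, and at 41 and 24 of the 43 translation machinery introns. Since the WT counts lay mainly in first values and the OE counts in second values, genotype and value cannot be told apart at the 84 introns with counts in the first WT and second OE values alone.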

How the data were processed

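RNA of RKO cells was read from 4 libraries, an input and an IP for WT and for OE. The authors deposited inclusion and skipping counts per event in 5 splicing classes, with 2 values per genotype in one cell, and beside them the authors' p-value, FDR and inclusion difference as a score between -1 and 1. The deposited peak lists hold pileup signal, fold ratio and −log10 p, called with MACS 2.1.0.20150420 per the file headers. FastQC 0.11.5 and HOMER stand in the submitters' processing notes. No source used here gives the aligner, the splicing caller or the genome build.

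The members and gene lists were chosen with earlier results of these data known. Introns were placed on the deposited gene annotation, in the annotated transcript that splices them, and overlap needed 1 base. RefSeq sequences (GRCh38.p14) of microRNA hairpins and promoter windows were used only where their coordinates met the listed intron. Fisher's exact test was run in scipy 1.17.1 with Python 3.11.15, at least 10 counts per genotype and Benjamini-Hochberg adjustment over all classes at 0.05, and checked on simulated counts. Alternatives were added values, a stratified exact test, crossed values, minimums of 5 and 20, and subsets of introns. Named introns had at least 10 counts in each genotype, an authors' p under 0.05, the most counts, or extreme length, came from a gene with 3 introns, or were the fullest examples of a list or class. Some introns that the rule would name are not reported here.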

Additional observations from a re-analysis of the deposited data

How the results depend on the processing

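Introns that passed the test numbered 0 of 5 with values apart and 6 of 12 with values added, all 6 higher in OE. The number was 0 of 12 in the stratified test and 0 of 2 with values crossed. At minimums of 5 and 20 counts it was 0 of 11 and 0 of 1. It was 0 of 5 with adjustment over the retained-intron table alone, 0 of 3 in first and 0 of 2 in second values. Of all tested events, 0 of 20 passed with values apart, 9 of 32 added, 1 of 32 stratified and 1 of 6 crossed. Minimums of 5 and 20 gave 2 of 52 and 1 of 5, and adjustment over that table alone gave 1 of 8. First and second values alone gave 0 of 15 and 1 of 5. So few of these introns were tested that a count of 0 does not show a lack of difference. The 5 introns tested with values apart had counts that left little or no room for a difference. Added values moved the summed OE minus WT gap to 46.4 points, from 13.3 in first and 24.2 in second values. The mean over introns moved the first gap to 22.1. Length correction changed the first gap to 8.39 and moved the second to 38.5, and introns with counts in both genotypes moved it to 17.1. Crossing the values, an alternative chosen after seeing the data, gave -35 points for OE first against WT second and 72.5 for OE second against WT first. The other alternatives run for the gaps kept their sign. The 470-base PTMA intron reversed from -1.94 points to 14.8 with values added. The median length moved to 434 bases in the 12 introns with at least 10 counts in each genotype, and coding placement moved to 86.9% with the transcript of most exons. The 221 introns are distinct, so counting each once changed nothing. Chosen after seeing the data, 219 introns without overlaps gave gaps of 14.3 and 23.8 points and 174 with no other annotated gene gave 16.3 and 25.2. Depth limits the comparison, with 90 introns able to differ within a value. Each genotype had 1 library of a kind, so none could be left out.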
